A study of Mus musculus with 4 samples.

Results

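The B lineage commitment factors are transcription regulators that turn a lymphoid progenitor into a B cell and keep it one. The set described here is the 9 genes Ebf1, Pax5, Tcf3, Pou2af1, Bach2, Foxo1, Ikzf1, Ikzf3 and Lef1, chosen by symbol, with every array probe set annotated to exactly 1 of them. Of the 9 genes, 8 had such a probe set, which gave 15 probe sets out of 20393 with a single gene symbol. Ikzf3 was named by none of them and has no value here. In mouse marrow, Tcf3 (E2A) and Foxo1 act early to switch on Ebf1, Ebf1 and Pax5 then activate B cell genes and shut down other fates, and Ikzf1 (Ikaros) opens the lymphoid program at its start. Lef1 is a Wnt pathway factor of early B and T cells, Bach2 a repressor that acts at the pre-B checkpoint, and Pou2af1 (OBF-1) a B cell coactivator that docks on octamer-binding proteins.

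The cells came from Mll-AF4stop knock-in mice, whose Mll-AF4 fusion construct is silent until Cre recombinase removes a stop. Per the labels' protocols, marrow was taken 5 days after the mice had 5-fluorouracil (5-FU), which is toxic to dividing blood cells. It was then infected in culture with a Cre-GFP retrovirus (Cre-GFP, 2 arrays) or with a MIG-GFP retrovirus (control, 2 arrays). Both groups carried the knock-in allele, had 5-FU, were sorted for GFP after another 2 days and grew for 14 days in lymphoid cytokines. The design text names the control virus MIG-Cre, whereas each control sample is labelled as having had a GFP virus. The sample labels were used, and if the control virus held Cre too the groups would not differ in Cre. Separate mice or cultures are not stated for the arrays of a group, so p-values reflect only how these 4 arrays vary, which may be technical. Active fusion and presence of Cre cannot be told apart.

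Each array had a median probe set intensity between 85.1 and 87.7. On the array, B cell markers were present: Vpreb1, a surrogate light chain of the pre-B receptor, read 13.28 and 13.42 in Cre-GFP 1 and 2, against 13.38 and 13.80 in control 1 and 2 (log2 intensity). Of 14 B cell marker genes measured, taking the brightest probe set of each, 13 were lower in Cre-GFP and 11 of them had groups that did not overlap, beside 6180 lower and 1841 lower without overlap (14.9%) among all 12394 genes. Their summed linear intensity was 49290 and 44941 in Cre-GFP, against 57743 and 61637 in control. The monocyte and macrophage sum over 14 genes was 6801 and 4885 in Cre-GFP, against 2363 and 4424 in control, with Cybb, Fcgr1 and Itgam under the 20th percentile on all 4 arrays. Lyz1, the brightest of the 14 on average, weighed heavily in it, with 11.79 and 11.15 in Cre-GFP, against 9.27 and 10.94 in control (log2 intensity). By brightest probe set, groups overlapped for 9 of the 14 genes. They did not for 4 higher, beside 15.2% of all genes, and 1 lower, beside 14.9%. The neutrophil and granule sum over 13 genes was 3929 and 4630 in Cre-GFP, against 1711 and 5481 in control. Primary granule genes on that list did not follow the sum: Mpo (myeloperoxidase) read 7.32 and 7.32 in Cre-GFP, against 6.21 and 5.93 in control (log2 difference 1.25 ± 0.15 SE, 2 arrays per group, limma adjusted p = 0.243), and Ctsg (cathepsin G) 7.48 and 7.75 in Cre-GFP, against 6.62 and 6.63 in control (0.99 ± 0.16, limma adjusted p = 0.4). Prtn3 (proteinase 3) differed by 0.70 ± 0.26 and Elane (neutrophil elastase) by 0.26 ± 0.15, both without overlap. Mmp9, on the same list, went the other way. On its brighter probe set it read 5.44 and 4.99 in Cre-GFP, against 5.79 and 5.73 in control (−0.54 ± 0.17). Over the list's 14 probe sets, groups did not overlap for 4 on the higher side and 4 on the lower. The shares of all probe sets were 15.4% and 14.6%. None of the list passed the test. The T cell sum over 12 genes was 2129 and 1834 in Cre-GFP, against 2303 and 2743 in control, with Bcl11b, Cd3g and Cd8a under the 20th percentile on all 4 arrays. On the brightest probe set of each, 6 of these 12 genes were lower and 6 higher, and groups overlapped for 10. Without overlap were 1 higher, beside 15.2% of all genes, and 1 lower, beside 14.9%. The part of these markers in the results below was not tested. In bulk RNA, fewer cells of a type and less RNA per cell cannot be told apart.

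The comparison asked whether the factors differ in cells given Cre, which is meant to activate the fusion. On their brightest probe sets Pou2af1, Ebf1 and Foxo1 had both Cre-GFP values below both control values, Pou2af1 by 3.21-fold, Ebf1 by 1.43-fold and Foxo1 by 1.32-fold. Pax5, Ikzf1, Bach2 and Lef1 had groups that overlapped, as did the brightest probe set of Tcf3. Of the 15 probe sets, 12 were lower in Cre-GFP, against 49.4% of all probe sets. The groups did not overlap, lower in Cre-GFP, for 6 of the 15, where 14.6% of all probe sets did so, and for 0 of the 15 in the other direction, where 15.4% did. The median log2 difference of the 15 probe sets was −0.30, and that of all probe sets was 0.0019. Probe sets of 1 gene share their transcript, and with the brightest probe set per gene the count was 3 of 8 genes, beside 14.9% of all genes.

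No member probe set passed the test. In limma, adjusted over 20393 probe sets, 0 of the 15 had an adjusted p under 0.05 (lowest 0.833, for Pou2af1), and 0 probe sets of the whole array did (0%). At an unadjusted p under 0.05 there were 2 of the 15, Pou2af1 and the brightest Ebf1 probe set, both lower in Cre-GFP. Of all probe sets 4.79% had such a p, 2.42% lower and 2.36% higher in Cre-GFP. With 2 arrays against 2, an exact permutation test of a single value cannot give a two-sided p below 0.333. The 2 arrays of a group were also less alike for these factors than for the typical probe set: the median absolute difference was 0.26 between the Cre-GFP arrays and 0.27 between the control arrays for the 15, and 0.16 and 0.15 for all probe sets. Of the 15, 13 lay above the median intensity, and spread was not compared at like intensity.

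**Figure D1:**
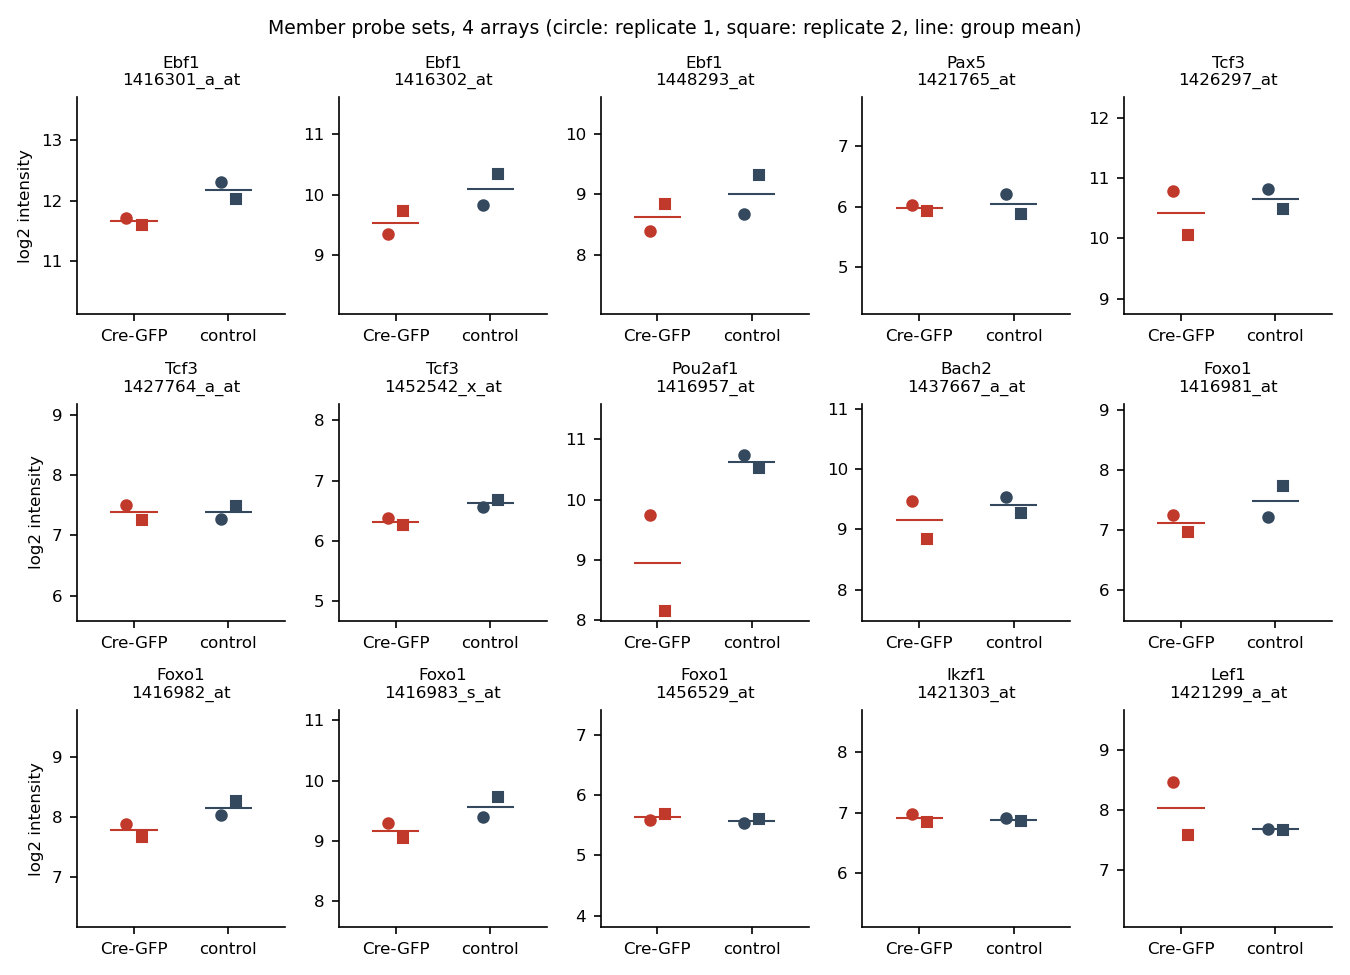
Log2 intensity (vertical axis, the same span of 3.6 units in each panel) of the 15 member probe sets on the 4 arrays, Cre-GFP left and control right; circles are replicate 1, squares replicate 2 and lines group means. The Pou2af1 panel has the widest gap between groups, with 8.16 and 9.74 in Cre-GFP below 10.52 and 10.74 in control.

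Ebf1, the pioneer factor that opens chromatin at B cell genes, read lower in Cre-GFP on the mean of each of its 3 probe sets. Its brightest probe set, 1416301_a_at, read 11.71 and 11.60 in Cre-GFP 1 and 2, against 12.30 and 12.03 in control 1 and 2. The groups were 0.33 log2 units apart at their closest, and the difference was −0.51 ± 0.15 (SE, n = 2 per group; 95% interval −0.89 to −0.13; limma adjusted p = 0.85). On 1416302_at it read 9.35 and 9.73 in Cre-GFP, against 9.83 and 10.34 in control, a difference of −0.55 ± 0.24 with groups that did not overlap. On 1448293_at Ebf1 read 8.40 and 8.84 in Cre-GFP, against 8.68 and 9.32 in control, so Cre-GFP 2 lay above control 1 and the groups overlapped (−0.38 ± 0.28). The annotation gives the same source sequence for all 3. They agreed on direction but not on the order of replicates, since control 1 was the higher control array on the first and the lower one on the others. Without control 2 the differences on these last 2 were −0.30 and −0.06, and without control 1 they were −0.81 and −0.70.

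Ebf1's relatives Ebf2 and Ebf3, which act mainly outside blood, were dim. Their 6 probe sets lay below the median intensity of all probe sets, with differences between −0.12 and 0.20 and none past the test.

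Pou2af1 had the largest difference of the set. It read 9.74 and 8.16 in Cre-GFP 1 and 2, against 10.74 and 10.52 in control 1 and 2, or 856 and 285 against 1706 and 1473 in linear intensity. The control arrays were close together and the Cre-GFP arrays were 1.58 log2 units apart, with Cre-GFP 2 much the lower. The difference was −1.68 ± 0.49 (95% interval −2.89 to −0.47, limma adjusted p = 0.833), and 0.0981% of all probe sets had a lower one. Leaving out Cre-GFP 2 gave −0.89, and leaving out Cre-GFP 1 gave −2.47. Pou2f2 (Oct-2), the lymphoid octamer-binding partner on which Pou2af1 acts, differed by −0.02 ± 0.14 and 0.01 ± 0.16 on its 2 probe sets, with groups that overlapped. Pou2f1 (Oct-1) was not named by a probe set with a single symbol.

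Pou2af1 was the 1 factor whose brightest probe set spanned over 1 log2 unit on the 4 arrays, so genes with a like profile were looked up for it alone. Among 6190 genes at or above the median intensity, the nearest by Euclidean distance between centred profiles over 4 arrays were Otub2, a deubiquitinating enzyme (distance 0.58), Zfpm1 (FOG-1), a GATA cofactor (0.69), and Prkcb, the protein kinase C of B cell receptor signalling (0.71). Otub2 read 8.02 and 6.36 in Cre-GFP, against 8.46 and 9.05 in control. Prkcb read 8.24 and 7.27 in Cre-GFP, against 8.87 and 9.16 in control. Cre-GFP 2 was the lowest array for each of them, which follows from picking genes with a profile like that of Pou2af1.

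Foxo1, the forkhead factor that drives Rag gene and Il7r expression in early B cells and is switched off by PI3K signalling, was lower on 3 of its 4 probe sets. The brightest, 1416983_s_at, read 9.29 and 9.04 in Cre-GFP, against 9.40 and 9.72 in control (−0.40 ± 0.20, 95% interval −0.88 to 0.09). The groups did not overlap but lay only 0.11 apart, less than either pair of replicates. The suffix _s_at of this probe set and the suffix _a_at of the brightest Ebf1 probe set are among those that a setting described below left out. Whether their probes match other genes was not tested. On 1416982_at the values were 7.89 and 7.67 in Cre-GFP, against 8.04 and 8.27 in control (−0.38 ± 0.18), again without overlap. On 1416981_at, with 7.25 and 6.97 in Cre-GFP, against 7.22 and 7.73 in control, the difference was as large (−0.37 ± 0.22) but Cre-GFP 1 lay above control 1. These 3 share a source sequence, and the fourth, 1456529_at, from another one and below the median intensity, differed by 0.07 ± 0.11. Without control 2 the 3 differences were −0.24, −0.26 and −0.11, in the order given. The relatives Foxo3 and Foxo4 differed by 0.07 to 0.20 on 3 probe sets and by −0.17 on 1, and none passed the test.

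The promoters of the 3 factors whose brightest probe sets did not overlap between groups are shown because these genes read lower in Cre-GFP together. Each is the 250 bases before a transcription start in RefSeq (GRCm38.p6, plus strand, 5′ to 3′); Ebf1 has 2 such starts. Capitals mark matches to 7 short motifs searched on both strands: the Ebf inverted repeat TCCCNNGGGA, the E-box CAGGTG of E proteins, the octamer ATGCAAAT, the forkhead core TGTTTAC, the Ikaros core TGGGAA, the Lef/Tcf core CTTTGA and the Bach/AP-1 core TGAGTCA.
Foxo1, chr3:52268087-52268336: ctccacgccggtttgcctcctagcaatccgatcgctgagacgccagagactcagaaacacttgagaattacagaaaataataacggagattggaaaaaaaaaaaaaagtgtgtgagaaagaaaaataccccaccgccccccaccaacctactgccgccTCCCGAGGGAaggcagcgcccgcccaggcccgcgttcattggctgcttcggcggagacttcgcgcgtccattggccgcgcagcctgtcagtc
Ebf1 start 1, chr11:44617850-44618099: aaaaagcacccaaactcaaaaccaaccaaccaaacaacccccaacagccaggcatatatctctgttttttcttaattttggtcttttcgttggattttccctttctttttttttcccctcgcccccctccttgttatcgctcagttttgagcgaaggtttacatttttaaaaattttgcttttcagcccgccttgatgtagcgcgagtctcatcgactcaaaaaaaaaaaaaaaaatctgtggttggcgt
Ebf1 start 2, chr11:44619978-44620227: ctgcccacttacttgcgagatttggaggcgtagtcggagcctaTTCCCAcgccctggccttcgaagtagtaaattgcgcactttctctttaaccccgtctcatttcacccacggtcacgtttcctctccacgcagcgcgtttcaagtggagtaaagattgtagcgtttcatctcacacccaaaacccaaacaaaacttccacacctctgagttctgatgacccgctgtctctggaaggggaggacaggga
Pou2af1, chr9:51213440-51213689: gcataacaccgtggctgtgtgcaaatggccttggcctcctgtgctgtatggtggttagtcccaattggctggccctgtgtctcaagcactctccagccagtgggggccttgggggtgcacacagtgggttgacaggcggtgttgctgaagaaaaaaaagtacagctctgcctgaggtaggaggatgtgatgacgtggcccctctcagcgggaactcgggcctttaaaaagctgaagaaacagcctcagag

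The Foxo1 promoter held 1 Ebf inverted repeat, which begins 92 bases before the start. That motif was found in 0.779% of 32851 promoter windows of the same length. The second Ebf1 window held 1 Ikaros core, on the minus strand and beginning 207 bases before the start, a motif found in 21.6% of windows. The first Ebf1 window and that of Pou2af1 held none of the 7. The E-box was found in 17.2% of all windows, the octamer in 1.6%, the forkhead core in 3.17%, the Lef/Tcf core in 13.8% and the Bach/AP-1 core in 4.46%. These matches describe the letters of the windows and do not show binding.

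Tcf3, the E protein that works at the top of the B cell hierarchy, gave 3 different readings. Its brightest probe set, 1426297_at, read 10.78 and 10.05 in Cre-GFP, against 10.82 and 10.49 in control (−0.23 ± 0.28). The groups overlapped, with Cre-GFP 2 the lowest array, and the difference was 0.13 without it. On 1427764_a_at the difference was −0.0003 ± 0.17. On 1452542_x_at, whose suffix marks probes shared with other transcripts, values of 6.38 and 6.27 in Cre-GFP lay below 6.57 and 6.68 in control (−0.30 ± 0.13) without overlap.

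The partners of Tcf3 were read from 18 probe sets of 8 genes in the E protein and Id family, of which 9 were lower and 9 higher in Cre-GFP; the median was 0.0052. None passed the test, and 1 in each direction had an unadjusted p under 0.05. Id3, which binds E proteins and keeps them off DNA, was the lower one, with 9.50 and 9.15 in Cre-GFP, against 10.19 and 10.02 in control (−0.78 ± 0.19, limma adjusted p = 0.73). Leaving out 1 array at a time gave −0.96 to −0.61. Id2, the Id protein of NK and myeloid cells, read 6.19 and 6.20 in Cre-GFP, against 6.35 and 7.73 in control on its brightest probe set, so that control 2 alone stood high (−0.85 ± 0.42, and −0.16 without control 2). Tcf4 (E2-2), the other E protein prominent in B and plasmacytoid cells, differed by 0.01 to 0.15 on 6 probe sets with overlapping groups. Tal1, a bHLH partner of stem and erythroid cells, was the higher one, at dim values of 4.87 and 4.87 in Cre-GFP, against 4.56 and 4.63 in control.

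Pax5, the factor that seals B cell identity, was read by 1 probe set below the median intensity. It gave 6.03 and 5.92 in Cre-GFP, against 6.22 and 5.88 in control, and both Cre-GFP values lay between the control values. The difference was −0.07 ± 0.15 (95% interval −0.45 to 0.31), and it was 0.10 without control 1. RMA understates folds at low values.

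Ikzf1, the zinc finger factor needed for lymphoid fate, differed by 0.02 ± 0.14, with 6.97 and 6.84 in Cre-GFP, against 6.90 and 6.86 in control. All 4 values lay within 0.14 log2 units. Ikzf2 (Helios), a T cell member of the family, was dim, with 4.77 and 4.91 in Cre-GFP, against 5.09 and 5.00 in control. Ikzf4 (Eos) read 8.07 and 7.71 in Cre-GFP, against 7.62 and 7.22 in control on 1 probe set (0.47 ± 0.21), and differed by −0.06 ± 0.13 on another. None of these 3 probe sets passed the test.

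Bach2 read 9.48 and 8.84 in Cre-GFP, against 9.54 and 9.27 in control (−0.25 ± 0.26, 95% interval −0.88 to 0.39). Cre-GFP 1 lay between the control arrays and Cre-GFP 2 below both. Without Cre-GFP 2 the difference was 0.07, and without Cre-GFP 1 it was −0.57. Bach1, its relative of wider expression, differed by −0.14 ± 0.17 and 0.31 ± 0.21 on 2 probe sets, and the small Maf partners Mafk, Mafg and Maff by −0.16 to 0.15. None passed the test.

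Lef1 was the only 1 of the 8 factors whose brightest probe set read more than 0.1 log2 units higher in Cre-GFP, and that rested on 1 array. It read 8.47 and 7.58 in Cre-GFP, against 7.69 and 7.67 in control. Cre-GFP 1 stood above the rest while Cre-GFP 2 was the lowest array, so the groups overlapped (0.35 ± 0.30, 95% interval −0.39 to 1.08). Without Cre-GFP 1 the difference was −0.10, and without Cre-GFP 2 it was 0.79. Tcf7l1 and Tcf7l2, of the same family, and Ctnnb1 (beta-catenin), its coactivator, differed by −0.18 to 0.11 on 9 probe sets with none past the test.

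**Figure D2:**
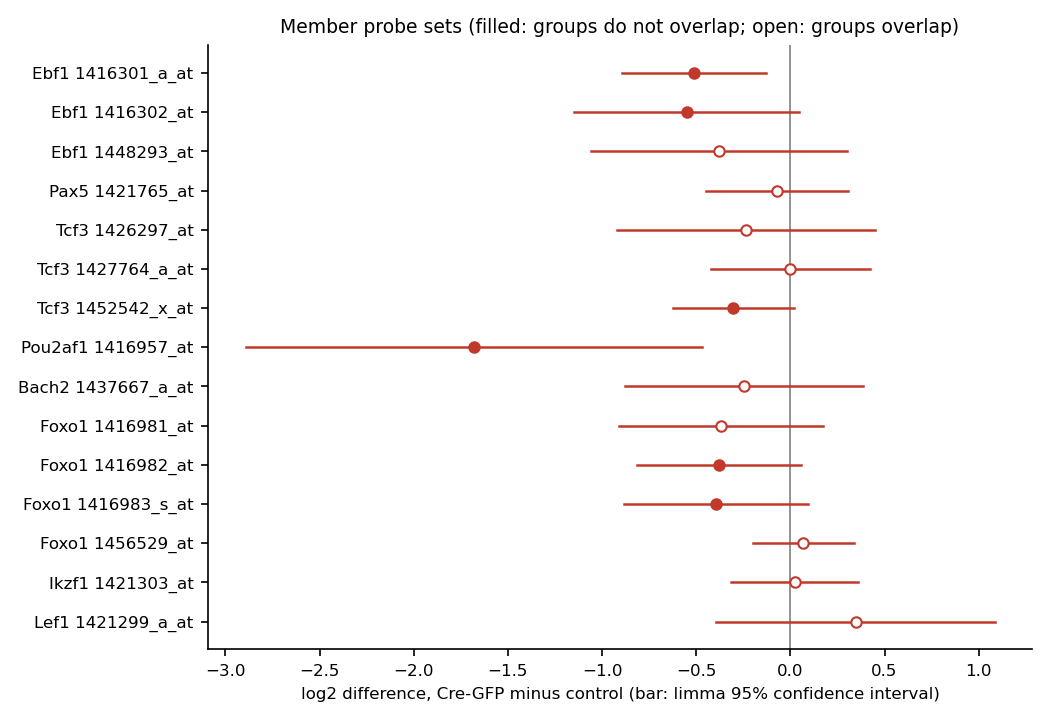
Log2 difference (horizontal axis, Cre-GFP minus control) of the 15 probe sets with limma's 95% confidence interval as a bar; filled points have groups that do not overlap. The intervals of Pou2af1 (−2.89 to −0.47) and of the brightest Ebf1 probe set (−0.89 to −0.13) lie below 0, before adjustment, and the other 13 cross it.

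Other B cell transcription factors lay on both sides. Of 44 probe sets for 17 such genes, 23 were lower and 21 higher in Cre-GFP, and the median was −0.01. None passed the test, 7 had an unadjusted p under 0.05 on the higher side, beside 2.36% of all probe sets, and 1 on the lower, beside 2.42%. The groups did not overlap for 10 on the higher side, beside 15.4% of all probe sets, and for 4 on the lower, beside 14.6%. These counts hold several probe sets of 1 gene. With the brightest probe set per gene, 6 of the 17 genes were higher and 11 lower. Groups did not overlap for 2 higher genes, beside 15.2% of all genes, and 3 lower, beside 14.9%. An unadjusted limma p under 0.05 was found for 2 higher and 1 lower, beside 270 and 295 of all 12394 genes. Spib, the Ets factor of B and plasmacytoid cells, read 8.28 and 6.58 in Cre-GFP, against 9.29 and 10.10 in control, with Cre-GFP 2 lowest as for Pou2af1 (−1.41 without it). Mef2c, which supports the lymphoid fate of early progenitors, was higher on each of its 5 probe sets, by 0.44 to 0.81, and on 4 of them the groups did not overlap. On the probe set with the largest difference it read 9.68 and 9.64 in Cre-GFP, against 9.10 and 8.59 in control (0.81 ± 0.22, limma adjusted p = 0.748, and 0.56 without control 2). Spi1 (PU.1), the Ets factor shared by B and myeloid progenitors, differed by −0.03 ± 0.18 with overlapping groups.

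Genes known to be activated by Ebf1, Pax5 or Tcf3 in B cells were measured by 34 probe sets of 21 genes. Of the 34, 28 were lower in Cre-GFP, beside 49.4% of all probe sets. None passed the test, and 7 had an unadjusted limma p under 0.05 on the lower side, beside 2.42% of all probe sets. On that side 19 had groups that did not overlap, beside 14.6% of all probe sets. With the brightest probe set per gene, 18 of the 21 genes were lower and 3 higher. Groups did not overlap for 13 lower genes, beside 14.9% of all genes, and 1 higher, beside 15.2%. The list's median log2 difference was −0.22, and 0.0019 over all probe sets. Of the 21 genes, 11 are also on the B cell marker list whose sums are given above. Fcrla, an Fc receptor-like protein inside B cells, read 5.14 and 4.93 in Cre-GFP, against 7.21 and 6.59 in control (−1.87 ± 0.22, limma adjusted p = 0.243), and differed by −0.11 and −0.14 on 2 dimmer probe sets. It passed the test only without control 1 (limma adjusted p = 0.0481, a difference of −1.56). Bst1, an early B cell surface ectoenzyme, read 6.75 and 5.62 in Cre-GFP, against 7.08 and 8.33 in control on its brighter probe set (−1.53 ± 0.51, and −0.90 without control 2). Cd79b, a signalling chain of the B cell receptor, read 9.72 and 8.60 in Cre-GFP, against 10.46 and 11.27 in control. The list holds the Foxo1 targets Il7r, Rag1 and Rag2. Il7r, the interleukin-7 receptor chain, read 9.15 and 8.63 in Cre-GFP, against 9.25 and 10.42 in control on its brighter probe set (−0.94 ± 0.41, and −0.35 without control 2). The groups did not overlap there, but they did on the other probe set (−0.93 ± 0.43). Rag1, which cuts DNA in V(D)J recombination, differed by 0.23 ± 0.27 with overlapping groups, and by −0.07 without Cre-GFP 2. Rag2 went the other way from Il7r, with 8.60 and 8.65 in Cre-GFP, against 8.35 and 8.14 in control (0.38 ± 0.17, and 0.28 without control 2). It was the 1 probe set of the list without overlap on the higher side, beside 15.4% of all probe sets.

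Genes known to be repressed by Pax5 were measured by 20 probe sets of 11 genes. Of these 14 were higher and 6 lower in Cre-GFP, where 49.4% of all probe sets were lower. On the higher side 11 had groups that did not overlap, beside 15.4% of all probe sets, and on the lower 3, beside 14.6%. An unadjusted limma p under 0.05 was found for 4 on the higher side, beside 2.36%, and 2 on the lower, beside 2.42%. Of the 20 probe sets, 14 lay below the median intensity. With the brightest probe set per gene, 8 of the 11 genes were higher and 3 lower. Groups did not overlap for 6 higher genes, beside 15.2% of all genes, and 2 lower, beside 14.9%. The median log2 difference of the 20 probe sets was 0.16, and none passed the test. That median was 0.10 without control 2 and 0.26 without the dimmest 40% of probe sets. Lmo2, a bridging factor of early blood cells, read 8.26 and 8.95 in Cre-GFP, against 7.18 and 6.74 in control. Csf1r, the receptor of macrophage growth factor, read 10.01 and 9.32 in Cre-GFP, against 8.16 and 8.91 in control on its brightest probe set. The difference there was 1.13 ± 0.34 (limma adjusted p = 0.85), and on 2 dimmer probe sets of Csf1r it was 0.36 ± 0.17 and 0.17 ± 0.13. Notch1, the receptor of T cell fate, went the other way on both probe sets, with 8.40 and 8.07 in Cre-GFP, against 8.76 and 8.76 in control on the brighter (−0.52 ± 0.18). Csf1r and Ccr2 are also on the monocyte and macrophage list, whose 2 Cre-GFP sums, given above, both exceed the 2 control sums; its part was not tested.

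**Figure D3:**
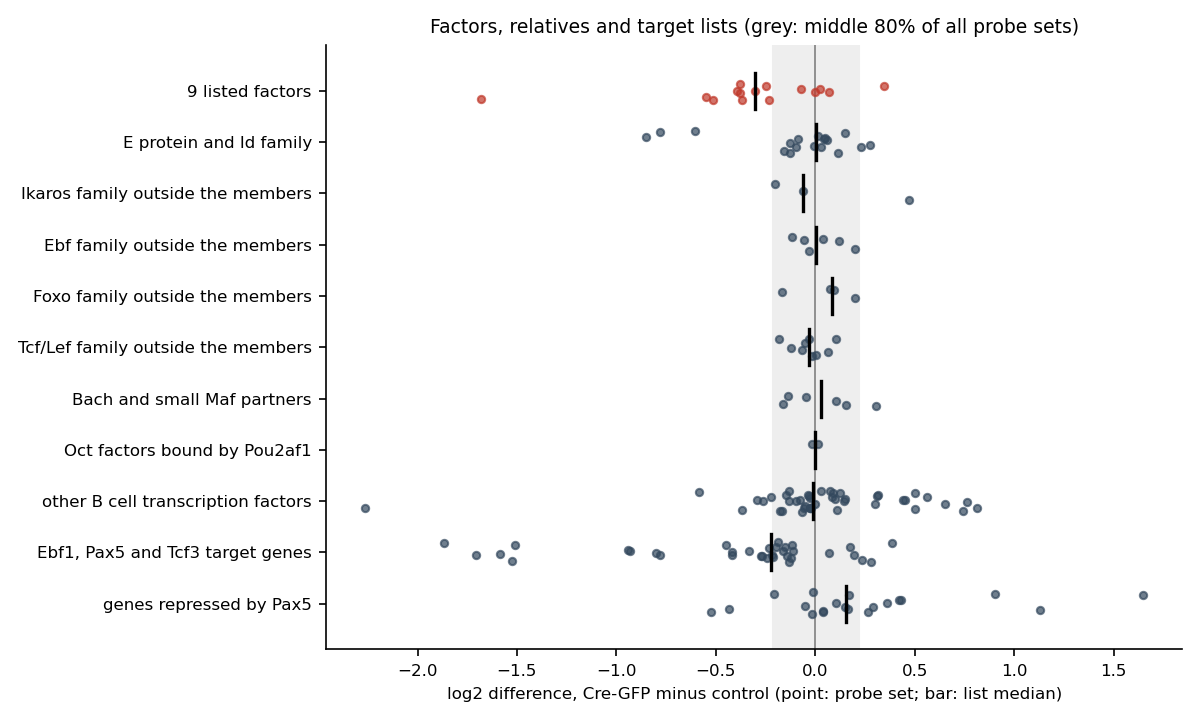
Log2 difference (horizontal axis, Cre-GFP minus control) of each probe set of the 8 measured factors, of their relatives and partners, and of their activated and repressed genes; black bars are list medians and the grey band runs from the 10th to the 90th percentile of all probe sets (−0.21 to 0.22). The median was −0.30 for the factors, −0.22 for the activated genes and 0.16 for the repressed genes; the band shows the spread of single probe sets and is no scale for a median.

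**Figure D4:**
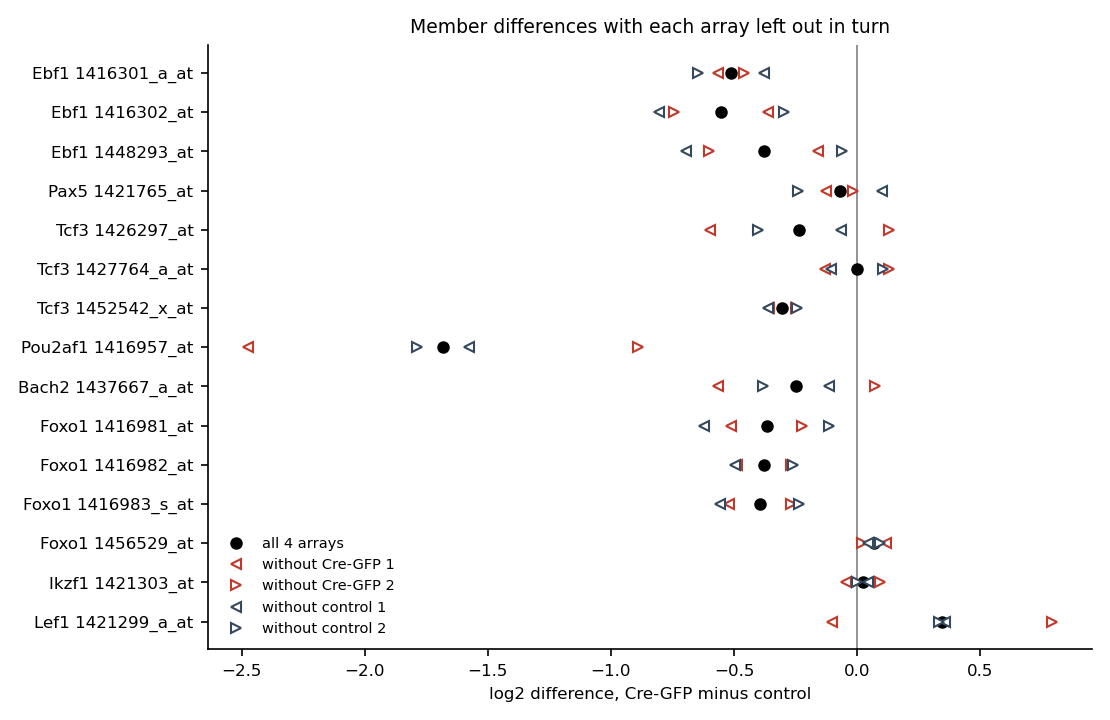
Log2 difference (horizontal axis, Cre-GFP minus control) of each member probe set with all 4 arrays (black) and with 1 array left out in turn (triangles). Pou2af1 ranges from −2.47 to −0.89 and the brightest Ebf1 probe set from −0.65 to −0.38, while those of Lef1, Bach2, Pax5 and Ikzf1 and 2 of Tcf3 lie on both sides of 0.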

How the data were processed

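Expression was measured on Affymetrix mouse arrays, 2 per group, from 20 ng of amplified total RNA per the labels' protocols. The values the authors deposited are linear-scale intensities, 1 per probe set and array, from RMA, per the submitters' processing notes. Its version and settings were not given in the sources used here. Deposited intensities were turned into log2 values without further normalization. As RMA is normally run, it equalizes the arrays and compresses folds of dim probe sets. The table held 22690 probe sets; the 20393 with exactly 1 gene symbol in the platform annotation were tested, and 691 with several symbols and 1606 with none were left out. Cre-GFP was set against control with limma 3.58.1 under R 4.3.3 (lmFit, then eBayes with its intensity trend, two-sided, Benjamini-Hochberg over all probe sets, threshold 0.05), a procedure tested on simulated data. Log2 differences are Cre-GFP minus control, errors after ± are limma's standard errors, and intervals are 95%. Precision is limited by having 4 arrays.

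The members, and the lists of relatives, targets and cell type markers, were chosen with earlier results of these data known. Members were all described. Elsewhere, up to 4 genes per list with the smallest p and a fixed set of partners were open to naming. Vpreb1 and the genes under the 20th percentile were named as marker checks after their values were seen. Elane and Rag2 were also named after their values were seen. Over the lists not described above, median log2 differences were 0.04 for NK cell, 0.08 for plasmacytoid dendritic cell, −0.0029 for mast cell and basophil and −0.10 for erythroid probe sets. Of 15 erythroid probe sets, 6 did not overlap on the lower side, beside 14.6% of all probe sets, and 2 on the higher, beside 15.4%. By brightest probe set it was 2 of 8 erythroid genes on each side, beside 14.9% of all genes lower and 15.2% higher. Promoters came from RefSeq windows for 8 of the 9 genes. Alternatives tried were a replicate block, leaving out each array, filters and floors on dim values, another pseudocount, quantile normalization, other tests and other choices of probe sets.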

Additional observations from a re-analysis of the deposited data

How the results depend on the processing

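No member passed the adjusted threshold under any of the 14 alternatives (limma, or an ordinary two-sample test in 1 of them). The whole array had 0 probe sets past it, except 25 without control 1, 1 without control 2 and 1 by an ordinary two-sample test. Without control 1, 1 probe set of the pathway and family lists passed (Fcrla, −1.56, adjusted p = 0.0481), and 0 did otherwise. Without probe sets ending in _a_at, _s_at, _x_at or _r_at, 3 of 9 member probe sets did not overlap on the lower side, beside 14.6% of all those kept. With 1 probe set per gene, 3 of 8 member genes did so, beside 14.9% of all genes. With the mean of a gene's probe sets it was also 3 of 8, beside 14.8%. Without single arrays the counts of member probe sets on that side were 7 to 12, beside 29.1% to 35.4% of all probe sets. On the higher side they were 1 to 3 without single arrays, beside 28.8% to 37.9% of all probe sets, since 2 arrays overlap 1 less often. The member median ranged from −0.36 to −0.22 without single arrays. It was −0.24 with 1 probe set per gene and −0.21 with the mean of a gene's probe sets. Without single arrays the difference ranged from −0.10 to 0.79 for Lef1, from −0.0443 to 0.0915 for Ikzf1, from −0.57 to 0.0738 for Bach2, from −0.24 to 0.10 for Pax5, and from −0.60 to 0.13 and −0.13 to 0.13 for the Tcf3 probe sets 1426297_at and 1427764_a_at. The cause was not tested. Those 6 were the ones to change sign under any alternative. With the replicate number as a block, the smallest member adjusted p was 0.575 and 4 member probe sets had an unadjusted p under 0.05, against 2 without the block (1547 against 976 over all probe sets), and no call changed; the numbers are not stated to pair the arrays, and same-numbered arrays deviated together with r = 0.36 over all probe sets and 0.56 over the 15 member probe sets. Medians of the activated and repressed gene lists, an alternative added after seeing the data, kept their sign throughout, with ranges of −0.27 to −0.20 (activated) and 0.10 to 0.26 (repressed).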
